A study of Mus musculus with 217 samples.

Results

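Heart endothelial cells (ECs) were compared at 24 hr and at 6 hr after lipopolysaccharide (LPS), the step from the early to the late response to this bacterial endotoxin. The comparison takes every library labelled heart at these 2 time points, with its sequencing runs summed and with libraries under 3% of reads on genes left out. That rule kept 4 of 5 libraries at 24 hr and 5 of 6 libraries at 6 hr, so 9 libraries of the 80 kept and 98 labelled in the whole series. All mice were adult C57BL/6J of the genotype Cdh5CreERT2/+; Rpl22HA/+, in which tamoxifen, given by gavage at 4 to 6 weeks of age, switches on an HA-tagged ribosomal protein in cells that use the Cdh5 (VE-cadherin) promoter. Mice at 6 and 24 hr had received 10 mg per kg LPS intraperitoneally, and the 0 hr mice were controls that had been given PBS. RNA bound to tagged ribosomes was pulled from whole heart lysate with an antibody against HA, so a level is the share of ribosome-bound RNA and depends on how completely other heart cells were removed. The age at LPS injection is not given in the sources used here, and neither is which libraries come from the same mouse, so p-values measure the spread between libraries.

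LPS is sensed by the receptor TLR4 with its partners CD14 and MD-2. The adaptor MyD88 leads to the transcription factor NF-kappaB and to cytokines, chemokines and adhesion molecules, and a second branch leads to interferon and to interferon-stimulated genes. In a resting heart the capillary endothelium moves fatty acids to the muscle, keeps blood from clotting and is held quiet by the receptor TEK (Tie2).

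The 9 libraries held 8779113 to 30163229 counts on genes, which were 43.7% to 67.7% of their reads. They came in 3 of the 4 series that the patterns of the deposited file names form. These patterns are the only sign used here of which sequencing batch a library belongs to. The paper reports that its samples grouped largely by sequencing batch before it corrected for batch. Of the 6 hr libraries, replicates 1 to 4 were of series 2 and replicate 5 of series 1, and of the 24 hr libraries replicate 1 was of series 1, replicate 2 of series 2 and replicates 4 and 5 of series 4. The library labelled 6 hr replicate 5 went against its label. Over 1240 genes at least 4-fold higher at 6 hr than at 0 hr in the other libraries, its median difference from the 0 hr mean was -0.01 on the log2 scale, whereas replicates 1 to 4 had 2.93, 2.68, 2.92 and 2.20 and the 24 hr libraries 1.40, 1.54, 1.67 and 1.83. Over 1560 genes at least 4-fold lower at 6 hr, it had 0.12, replicates 1 to 4 had -2.73, -2.44, -2.68 and -1.96, and the 24 hr libraries had -1.07 to -1.59. The library labelled 72 hr replicate 1, which enters only the estimate of spread and series, also lay near 0 hr, at 0.13 and 0.02. The comparison was therefore made over all 9 libraries (the 9-library comparison) and over the 8 left without 6 hr replicate 5 (the 8-library comparison). Both counts are given for each gene list of the heart, and a list member given with 1 value has it from the 8-library comparison.

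**Figure D1:**
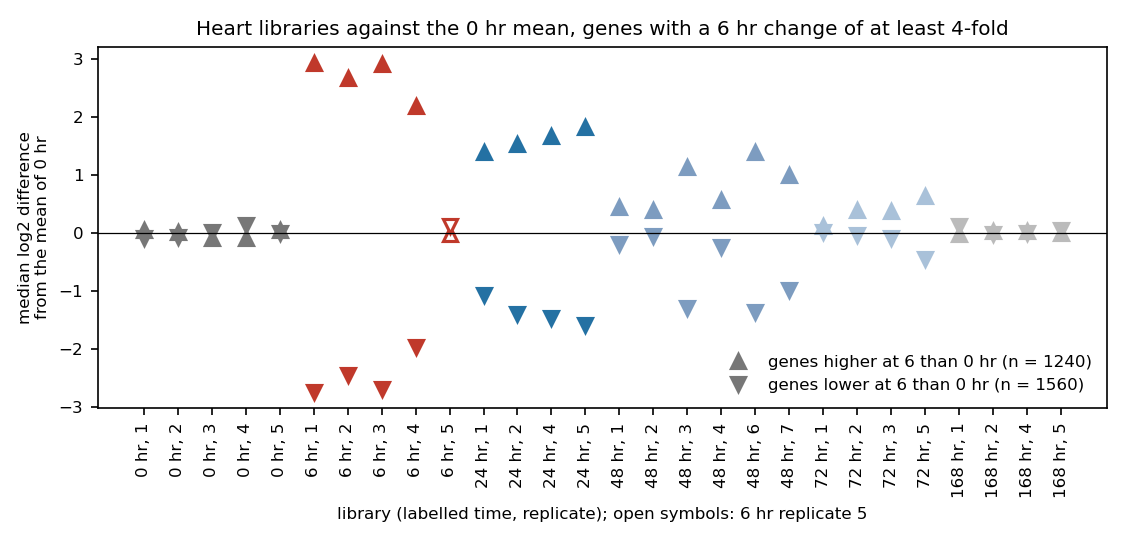
Each heart library is placed by its labelled time and replicate, with the median log2 difference from the 0 hr mean over 1240 genes that were higher (triangles up) and 1560 genes that were lower (triangles down) at 6 hr than at 0 hr. The 6 hr replicates 1 to 4 lie between 2.20 and 2.93 for the first group, the open symbols of 6 hr replicate 5 lie at -0.01 and 0.12, and the 24 hr libraries lie in between.

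The tissue label was checked against markers as summed CPM (counts scaled to library size). All 12 endothelial markers were detected at 0, 6 and 24 hr. They summed to 6870 to 8390 CPM in 6 hr replicates 1 to 4, 13400 CPM in replicate 5, 10500 to 13500 CPM at 24 hr and 11900 to 13700 CPM at 0 hr. The 17 cardiomyocyte markers were also present and summed to 7750 to 16400 CPM in 6 hr replicates 1 to 4, 7680 CPM in replicate 5, 4200 to 6800 CPM at 24 hr and 5790 to 11200 CPM at 0 hr. In the 8-library comparison 8 of these 17 were lower at 24 hr (Tnnt2, Tnni3, Tnnc1, Actc1, Ttn, Pln, Ryr2 and Mybpc3) and none was higher, and in the 9-library comparison 3 were lower. Of 15 neutrophil markers Lcn2, which ECs make as well, held almost all the counts. The other 14 summed to 45.7 to 68.0 CPM in 6 hr replicates 1 to 4, 10.5 to 37.9 CPM at 24 hr and 1.19 to 1.99 CPM at 0 hr. The 15 monocyte and macrophage markers summed to 112 to 192 CPM in 6 hr replicates 1 to 4 and 55.9 to 64.6 CPM at 24 hr. Cd14 led them and was lower over 8 libraries, whereas Cd68 was higher over 8 (1.62, adjusted p = 0.00219) and over 9 libraries (1.91, adjusted p = 0.00928), and no other was called. Fibroblast markers summed to 248 to 587 CPM in 6 hr replicates 1 to 4 and 587 to 1080 CPM at 24 hr, with Dcn and Postn higher over 8 libraries. The 7 lymphatic markers summed to 293 to 370 CPM in 6 hr replicates 1 to 4 and 377 to 691 CPM at 24 hr, with Lyve1 and Mmrn1 higher over 8 libraries, none called over 9, and Pdpn and Ccl21a at 0. The part of these cells in the results below was not tested. In pulled-down RNA, fewer cells of a type and less RNA per cell cannot be told apart.

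From 6 to 24 hr, many genes of the early inflammatory response fell and many genes of resting endothelium rose in the 8-library comparison, and far fewer were called in the 9-library comparison. The 8-library comparison tested 15990 genes and called 2470 higher (15.4%) and 2426 lower (15.2%) at 24 hr, with a median log2 fold change of 0.01 over all genes tested. The 9-library comparison tested 16024 genes and called 292 higher (1.82%) and 468 lower (2.92%), with a median of -0.07. All 292 and 467 of the 468 were called in the same direction without 6 hr replicate 5. Counts of list members below stand beside these shares of all genes tested. A count near them does not set a list apart. Whether counting used strand is not given, and exons of Cxcl10, Icam1, Ucp2 and Mt2 overlap genes on the other strand by 133, 511, 305 and 432 bases, so reads of such pairs cannot be told apart. Both comparisons come from edgeR's quasi-likelihood test over the heart libraries of all 6 time points with file-name series as a covariate. Called means a Benjamini-Hochberg adjusted p under 0.05. A further fit, the 4-against-4 fit, used only 6 hr replicates 1 to 4 and the 4 libraries of 24 hr, with no series term, and called 2292 higher (16.3%) and 2039 lower (14.5%) of 14020 genes. It is given beside part of the results, because 3 of the 4 libraries of 24 hr belong to series that hold no other 6 hr library. Its 6 hr libraries are all of series 2, so a difference between series passes into its fold changes and calls. It thus cannot tell series from time for those 3 libraries. Where the 4-against-4 fit is not given, its values and counts can differ too. Within series 2, 4 libraries of 6 hr against 1 of 24 hr, 741 genes were higher and 597 lower, with the lone library assumed to vary like the others.

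**Figure D2:**
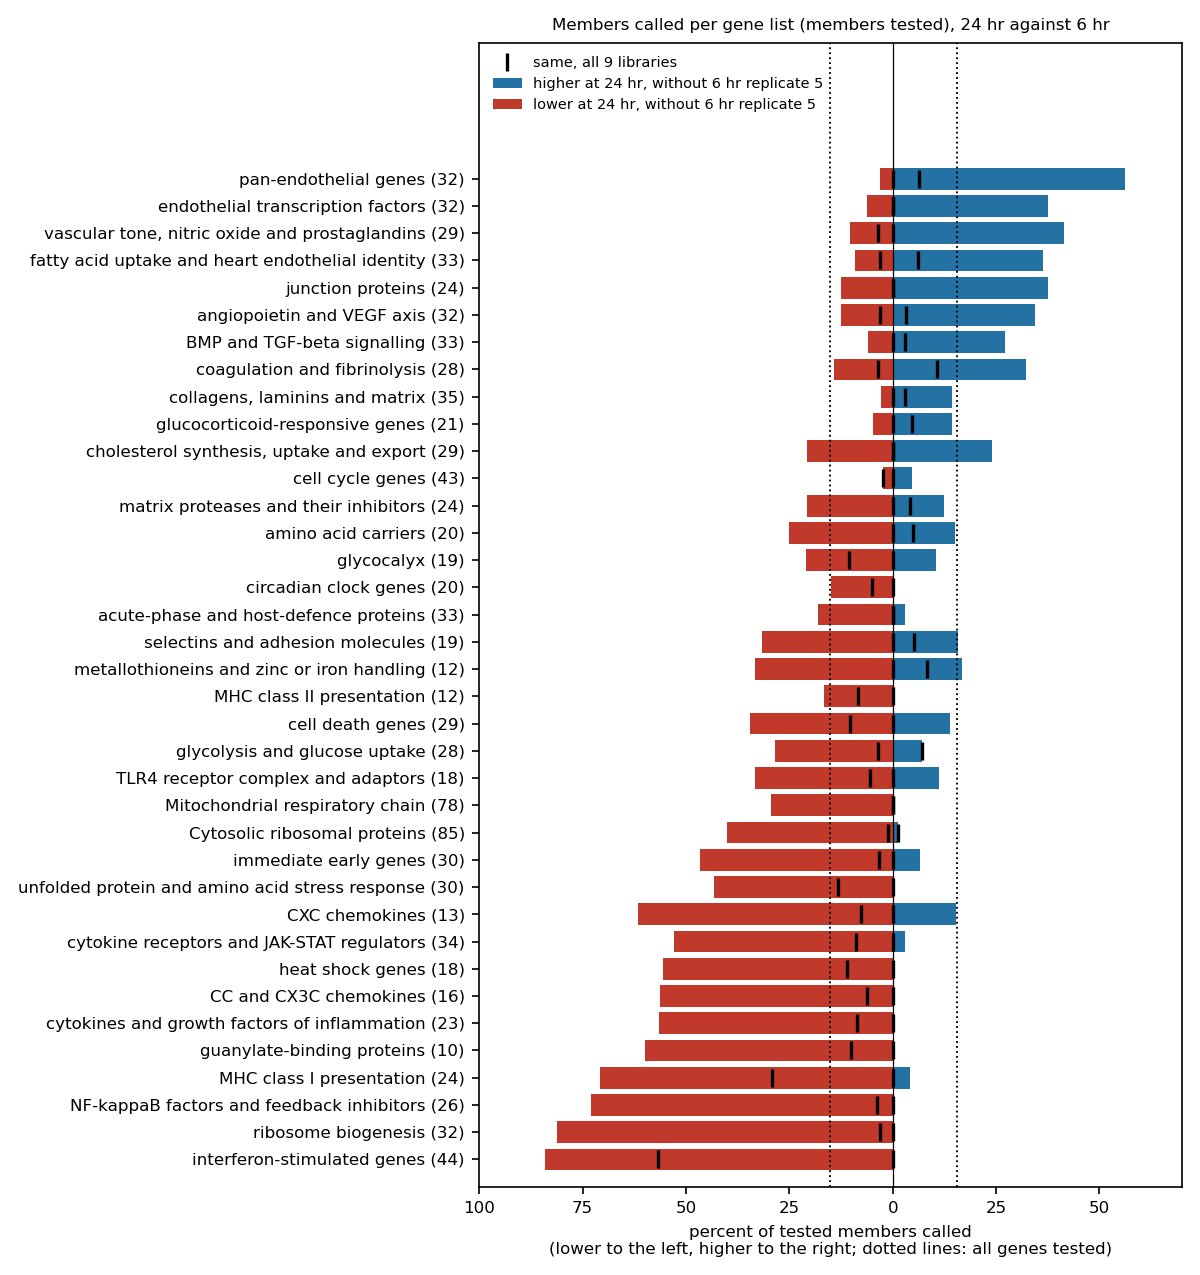
For each gene list, with the number of members tested, bars show the percent of members called higher (right, blue) or lower (left, red) at 24 hr than at 6 hr in the 8-library comparison, black ticks show the same for all 9 libraries, and dotted lines show the share among all genes tested (15.4% and 15.2%). Interferon-stimulated genes and ribosome biogenesis genes reach furthest to the left and pan-endothelial genes furthest to the right.

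Many chemokines and cytokines fell from 6 to 24 hr. In the 8-library comparison 8 of 13 CXC chemokines, 9 of 16 CC and CX3C chemokines and 13 of 23 cytokines and growth factors were lower at 24 hr, with medians of -2.25, -1.52 and -1.62, and 2, 0 and 0 were higher. In the 9-library comparison 1, 1 and 2 were lower and none was higher. The falls were partial, since the same lists lay at medians of 4.75, 1.78 and 1.73 above 0 hr at 24 hr. In the 8-library comparison 4 of the 10 largest falls among well-expressed genes (mean level 5 or more in log2 CPM) were neutrophil or monocyte attractants that had not returned to the 0 hr level, and the first of all 10 was Cxcl2. That ranking required every 24 hr library to lie below every 6 hr library used.

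Cxcl2, a CXC chemokine that draws neutrophils, stood at 10.11, 10.05, 8.81 and 8.46 log2 CPM in 6 hr replicates 1 to 4, at -1.71 in 6 hr replicate 5, and at 5.35, 6.10, 6.46 and 5.93 in 24 hr replicates 1, 2, 4 and 5. Replicates 1 to 4 all lay above every 24 hr library, and replicate 5 lay within the 0 hr range of -2.06 to -0.49. The level was 20.7-fold lower at 24 hr over 8 libraries (log2 fold change -4.37, SE 0.57, edgeR adjusted p = 8.39e-06) and the 9-library fold change was -3.82 (SE 1.07, adjusted p = 0.039). Cxcl1, its neighbour with the same target cells, stood at 11.23, 12.13, 11.53 and 10.29 log2 CPM in 6 hr replicates 1 to 4, at 2.18 in replicate 5, and at 8.51, 8.84, 9.40 and 9.51 at 24 hr. Here too the groups did not overlap apart from replicate 5. Its 8-library fold change was -3.13 (SE 0.57, adjusted p = 0.00031), against -2.58 (SE 0.99, adjusted p = 0.114) over 9 libraries.

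Ccl2, the monocyte attractant MCP-1 (mm10 chr11:82035571-82037453, 2 exons), was the most even of these genes within each time. It stood at 12.12, 12.39, 11.97 and 11.85 log2 CPM in 6 hr replicates 1 to 4, at 2.28 in replicate 5, and at 8.81, 8.73, 8.99 and 8.69 at 24 hr. The 24 hr libraries lay close together, far below all 4 of these 6 hr libraries and far above the 0 hr range of 2.44 to 3.17. The 8-library fold change was -3.62 (SE 0.60, adjusted p = 0.000101), and over 9 libraries it was -3.08 (SE 1.02, adjusted p = 0.0736). Ccl7, another monocyte attractant beside Ccl2 on the chromosome, changed by -3.29 and Cxcl5, a neutrophil attractant, by -3.27 in the 8-library comparison, with adjusted p = 0.00477 and 0.00282. Over 9 libraries they were -2.71 and -2.66 and not called (adjusted p = 0.143 and 0.162). Ccl5, which draws T cells and monocytes, was -2.27 (SE 0.65, adjusted p = 0.0104) over 8 libraries and -1.63 (SE 0.91, adjusted p = 0.285) over 9.

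Interleukin 6 and the interferon-induced chemokines spread more widely at 24 hr. Il6, which drives fever and the acute-phase response, stood at 8.90, 8.95, 8.16 and 7.13 log2 CPM in 6 hr replicates 1 to 4, at -3.39 (no count) in replicate 5, and at 5.06, 5.86, 7.52 and 7.00 at 24 hr. The 24 hr replicate 4 lay above the lowest of the first 4. Its 8-library fold change was -3.72 (SE 0.75, adjusted p = 0.000718), but -1.74 (adjusted p = 0.0201) in the 4-against-4 fit and -3.12 (SE 1.20, adjusted p = 0.116) over 9 libraries. Cxcl10, which draws T cells and is induced by interferon, stood at 12.50, 12.80, 12.18 and 10.81 in 6 hr replicates 1 to 4, at 5.03 in replicate 5, and at 7.70, 6.83, 10.10 and 9.81 at 24 hr. The 24 hr libraries of series 4 (replicates 4 and 5) were more than 2 log2 units above the others, yet all lay below the 6 hr libraries 1 to 4. The 8-library fold change was -3.62 (SE 0.68, adjusted p = 0.000397) and the 9-library fold change -3.00 (SE 1.00, adjusted p = 0.0744). Cxcl9, a related attractant, was not called, with -1.42 (SE 0.63, adjusted p = 0.0871) over 8 libraries and 24 hr levels from 9.11 to 12.27 against 11.53 to 12.11 in 6 hr replicates 1 to 4. Cxcl12, which keeps blood progenitors and T cells in place, went the other way. It stood at 6.67, 6.82, 6.57 and 7.32 in 6 hr replicates 1 to 4 and at 9.01, 8.61, 7.87 and 7.62 at 24 hr, below the 0 hr range of 10.76 to 11.14, with an 8-library fold change of 2.02 (SE 0.44, adjusted p = 0.00126) and -0.07 (adjusted p = 0.962) over 9 libraries.

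The promoters of 5 of these early genes are printed because each holds letters known as binding sites of NF-kappaB (GGG, any 2 bases, then TTTCC, or GGGANTTCC) or of interferon-activated factors (GAAA, any 2 bases, then GAAA), on either strand, and the matches are in capitals. Each run is 120 bases of RefSeq sequence on GRCm38.p6, the assembly of mm10, upstream of the gene's start and read 5' to 3' along the gene. Cxcl1 is chr5:90891095-90891214 on the plus strand, Cxcl2 chr5:90903749-90903868 plus, Il6 chr5:30012964-30013083 plus, Ifit1 chr19:34640739-34640858 plus and Cxcl10 chr5:92349020-92349139 minus. A match is a match of letters, and no binding was measured.
Cxcl1: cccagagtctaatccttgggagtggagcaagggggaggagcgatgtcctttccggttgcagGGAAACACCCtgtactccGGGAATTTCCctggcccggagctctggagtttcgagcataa
Cxcl2: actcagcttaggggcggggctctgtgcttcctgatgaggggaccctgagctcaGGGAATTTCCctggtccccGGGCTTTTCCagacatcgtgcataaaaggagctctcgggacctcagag
Il6: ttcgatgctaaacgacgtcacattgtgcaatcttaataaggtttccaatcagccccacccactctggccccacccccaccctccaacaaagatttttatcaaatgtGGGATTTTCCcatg
Ifit1: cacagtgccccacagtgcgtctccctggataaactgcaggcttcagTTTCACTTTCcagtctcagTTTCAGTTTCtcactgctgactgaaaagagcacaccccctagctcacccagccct
Cxcl10: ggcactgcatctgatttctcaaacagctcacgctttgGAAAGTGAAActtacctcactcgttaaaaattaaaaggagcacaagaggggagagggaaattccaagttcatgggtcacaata

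**Figure D3:**
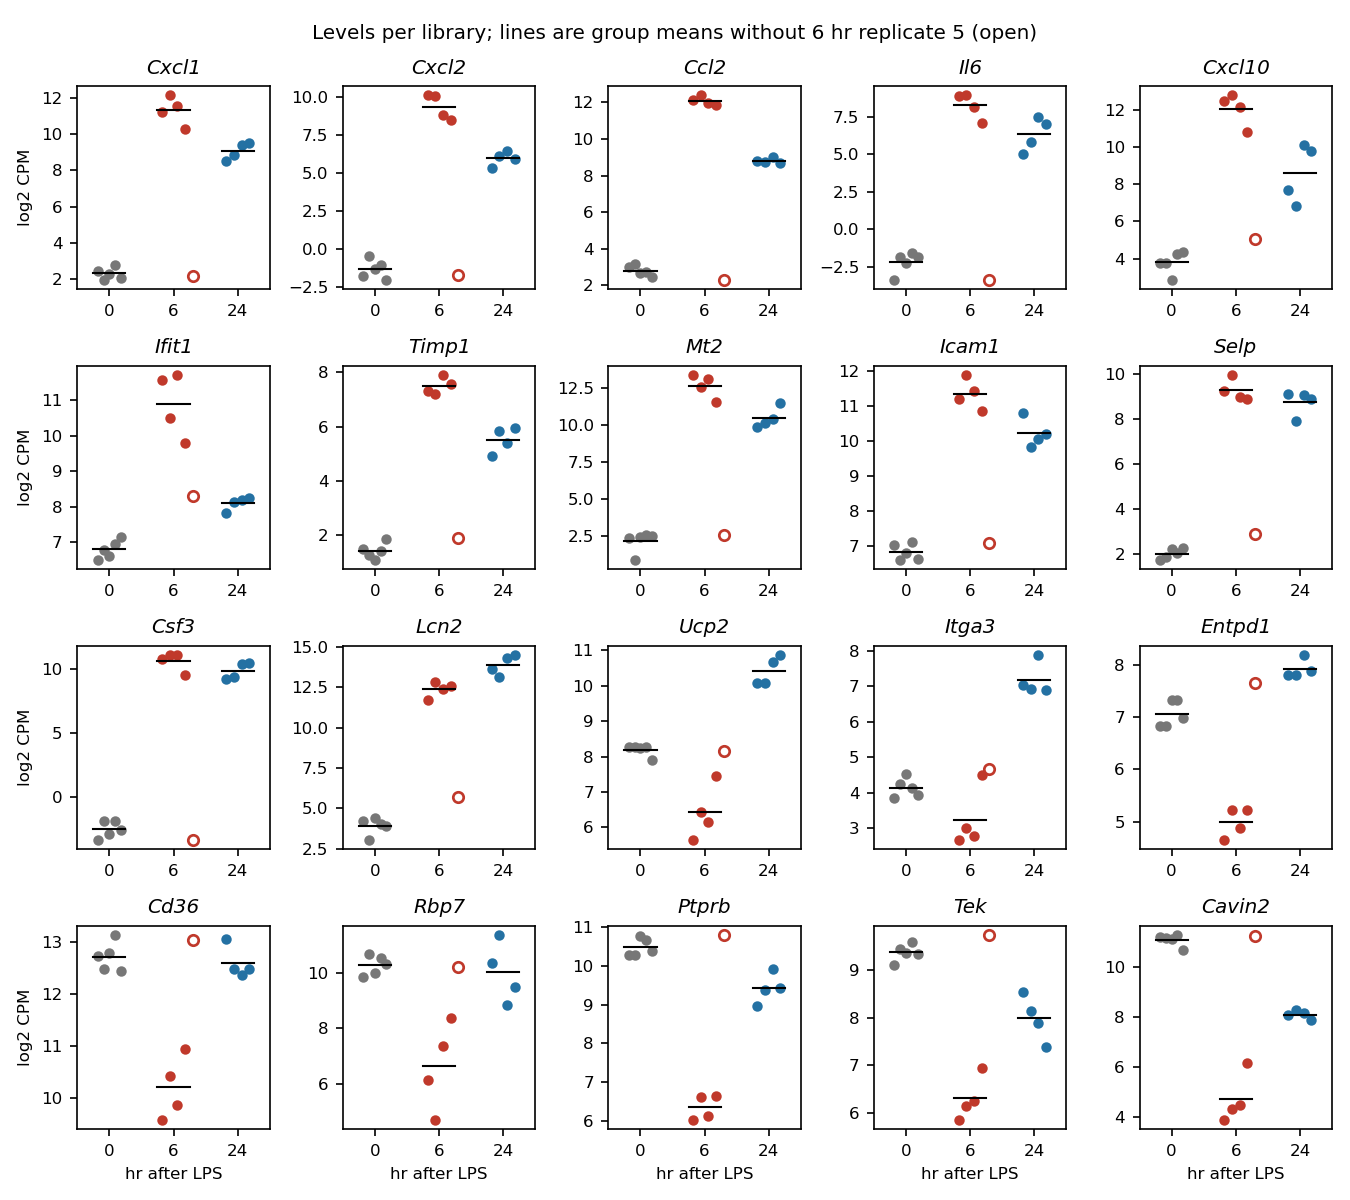
Each panel gives 1 gene in log2 CPM for the 5 libraries of 0 hr, the 5 of 6 hr and the 4 of 24 hr, with a line at the mean without 6 hr replicate 5, which is the open point. The early genes from Cxcl1 to Icam1 are highest at 6 hr, Selp, Csf3 and Lcn2 stay high at 24 hr, Ucp2, Itga3 and Entpd1 are highest at 24 hr, and Cd36, Rbp7, Ptprb, Tek and Cavin2 are lowest at 6 hr.

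Interferon-stimulated genes were the list with the most falls in both comparisons. Of 44, all tested, 37 were lower and none was higher over 8 libraries (median -2.06), and 25 were lower over 9 libraries (median -1.66). At 24 hr the list lay at a median of 1.17 above 0 hr, against 3.20 at 6 hr. Ifit1, which binds viral RNA that lacks host cap marks, stood at 11.56, 10.51, 11.71 and 9.81 log2 CPM in 6 hr replicates 1 to 4, at 8.31 in replicate 5, and at 7.82, 8.13, 8.20 and 8.26 at 24 hr. All 24 hr libraries lay below all 5 libraries of 6 hr, and replicate 5 lay above the 0 hr range of 6.5 to 7.14. The fold change was -2.92 (SE 0.39, adjusted p = 1.11e-05) over 8 and -2.50 (SE 0.48, adjusted p = 0.00849) over 9 libraries. Eif2ak2, the kinase PKR that halts translation on double-stranded RNA, stood at 9.64, 8.51, 9.44 and 7.32 in 6 hr replicates 1 to 4, at 6.76 in replicate 5, and at 6.06, 6.22, 6.56 and 6.25 at 24 hr. These groups were also apart with replicate 5 included. Its fold change was -2.72 (SE 0.33, adjusted p = 4.69e-06) over 8 and -2.36 (SE 0.39, adjusted p = 0.00529) over 9 libraries.

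Others among the 10 largest falls of the 9-library comparison were Parp11, Ifi44, Spats2l and Tor3a, whose fold changes of -2.51, -2.19, -2.06 and -1.99 became -2.89, -2.50, -2.35 and -2.31 over 8 libraries. That ranking required every 24 hr library to lie below every 6 hr library, replicate 5 included, which none of the chemokines above met. The largest fall within the interferon list was Oas1g, a synthase of the 2-5A signal, at -3.69 (SE 0.43, adjusted p = 2.5e-06) over 8 libraries, although reads can be lost between it and its near-identical paralogs. The remaining falls of the 9-library ranking were Tra2a, a splicing factor, Tuba4a, a tubulin, Aftph and the cardiac actin Actc1, which is a cardiomyocyte marker.

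The RNA of many genes for antigen presentation through MHC class I fell with the interferon genes. Of 24 members 17 were lower over 8 libraries (median -0.96), 7 over 9 libraries and 11 in the 4-against-4 fit. At 24 hr the list still lay at a median of 1.06 above 0 hr, and presentation itself was not measured. The transactivator Nlrc5 stood at 8.87, 8.45, 8.78 and 7.5 log2 CPM in 6 hr replicates 1 to 4, at 5.17 in replicate 5, and at 5.96, 5.41, 6.47 and 5.72 at 24 hr. Apart from replicate 5, which was lower than every 24 hr library, the groups did not overlap, and the fold change was -2.86 (SE 0.37, adjusted p = 7.23e-06) over 8 libraries. The immunoproteasome subunits Psmb8, Psmb9 and Psmb10 and the peptide carriers Tap1 and Tap2 were each lower over 8 libraries, by -2.05, -2.22, -2.58, -1.98 and -2.51. B2m, the light chain that all class I molecules share, was the exception at 0.80 (SE 0.30, adjusted p = 0.0456), and its groups overlapped. It was not called over 9 libraries (0.86, adjusted p = 0.0754). Of 10 guanylate-binding proteins, which attack intracellular microbes, 6 were lower over 8 libraries, 4 in the 4-against-4 fit and 1 (Gbp7) over 9 libraries. Gbp2 was -1.42 (adjusted p = 0.00726) over 8 libraries but -0.78 (adjusted p = 0.132) in the 4-against-4 fit and -0.92 (adjusted p = 0.319) over 9 libraries. In MHC class II presentation 2 of 12 were lower over 8 libraries, the costimulators Cd40 (-2.99, adjusted p = 2.95e-06) and Cd80, and Cd40 was lower over 9 as well (-2.43). The chaperone Cd74 was not called at -0.01 (SE 0.69, adjusted p = 0.991).

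The NF-kappaB list holds the factors and the inhibitors they induce, and 19 of its 26 members were lower over 8 libraries (median -1.59), 16 in the 4-against-4 fit, and 1, Bcl3, over 9 libraries. None was higher in any of these. Nfkbia, the inhibitor that returns NF-kappaB to the cytoplasm, stood at 12.89, 12.14, 12.34 and 11.16 log2 CPM in 6 hr replicates 1 to 4, at 9.09 in replicate 5, and at 10.65, 10.87, 10.89 and 11.15 at 24 hr. The highest 24 hr library was 0.01 below the lowest of the first 4. Its 8-library fold change was -1.96 (SE 0.43, adjusted p = 0.00145), and the 9-library value -1.48 (SE 0.57, adjusted p = 0.116). Tnfaip3, the deubiquitinase A20 that stops the signal, stood at 10.68, 10.34, 9.51 and 8.88 in 6 hr replicates 1 to 4, at 4.41 in replicate 5, and at 8.15, 8.40, 8.42 and 8.32 at 24 hr. At 24 hr it was nearly even across libraries and well above the 0 hr range of 4.37 to 5.01. The 8-library fold change was -2.12 (SE 0.42, adjusted p = 0.000657), against -1.60 (SE 0.70, adjusted p = 0.165) over 9 libraries. Bcl3, a nuclear partner of the p50 and p52 subunits, changed by -2.70 (SE 0.31, adjusted p = 1.82e-06) over 8 and -2.16 (SE 0.62, adjusted p = 0.0425) over 9 libraries.

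Upstream, 6 of 18 members of the TLR4 receptor complex and its adaptors were lower and 2 higher over 8 libraries (1 and 0 over 9). Those that fell included the receptor Tlr2 (-2.62), the coreceptor Cd14 (-2.18), the brake Irak3 (-1.72) and the adaptor Myd88 (-1.25). Ly96, which encodes MD-2, was called over 8 libraries at 0.59 (adjusted p = 0.0432) but not in the 4-against-4 fit (0.47, adjusted p = 0.254). Of 34 cytokine receptors and JAK-STAT regulators 18 were lower and 1, Stat6, was higher over 8 libraries, with 3 lower over 9. The feedback inhibitor Socs1 had levels of 9.02, 8.25, 8.12 and 6.64 log2 CPM in 6 hr replicates 1 to 4, 2.03 in replicate 5, and 4.30, 5.32, 5.63 and 6.10 at 24 hr. All of the first 4 exceeded all 24 hr libraries, with a fold change of -3.18 (SE 0.67, adjusted p = 0.00103) over 8 libraries and -2.59 (SE 0.91, adjusted p = 0.0882) over 9. Socs3, which blunts IL-6 signals, was called over 8 libraries (-1.62, adjusted p = 0.0216) and neither in the 4-against-4 fit (-0.54, adjusted p = 0.326) nor over 9 libraries (-1.07, adjusted p = 0.36). Of 30 immediate early genes 14 were lower and 2 higher over 8 libraries, 9 and 4 in the 4-against-4 fit, and 1 and 0 over 9 libraries. Nr4a3, an orphan nuclear receptor, fell by 2.32 (SE 0.41, adjusted p = 0.000231), and Klf4, a flow-responsive factor of resting endothelium that is in this list too, rose by 1.43 (SE 0.47, adjusted p = 0.0219) over 8 libraries.

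For several inflammatory genes the call depended on the fit. Lcn2, a siderophore-binding protein that starves bacteria of iron, stood at 11.72, 12.81, 12.40 and 12.56 log2 CPM in 6 hr replicates 1 to 4, at 5.69 in replicate 5, and at 13.63, 13.11, 14.33 and 14.49 at 24 hr. Every 24 hr library lay above every 6 hr library. The 4-against-4 fit called it higher (1.62, SE 0.37, adjusted p = 0.00677), whereas the fits with a series term did not (-0.07, SE 0.80, adjusted p = 0.959 over 8 libraries and 0.52, SE 1.02, adjusted p = 0.793 over 9). With the series term alone dropped it was 1.57 (SE 0.91, adjusted p = 0.181) over 8 libraries. Csf3, the granulocyte growth factor G-CSF, stood at 10.76, 11.08, 11.10 and 9.56 in 6 hr replicates 1 to 4, at -3.39 (no count) in replicate 5, and at 9.19, 9.39, 10.41 and 10.45 at 24 hr. The groups overlapped, and its fold change was -3.02 (SE 1.07, adjusted p = 0.0352) over 8 libraries but -0.72 (adjusted p = 0.163) in the 4-against-4 fit. Selp, the adhesion receptor P-selectin that slows leukocytes, stood at 9.25, 9.95, 8.98 and 8.89 in 6 hr replicates 1 to 4, at 2.86 in replicate 5, and at 9.09, 7.91, 9.05 and 8.90 at 24 hr. Its levels overlapped, and -1.94 (SE 0.68, adjusted p = 0.0339) over 8 libraries stood against -0.47 (adjusted p = 0.275) in the 4-against-4 fit. For Sele, E-selectin, the values were -1.16 (SE 0.72, adjusted p = 0.231) and -0.11 (adjusted p = 0.88).

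Adhesion receptors that hold leukocytes more firmly fell over 8 libraries. Icam1, which binds leukocyte integrins, stood at 11.21, 11.88, 11.43 and 10.86 log2 CPM in 6 hr replicates 1 to 4, at 7.08 in replicate 5, and at 10.80, 9.84, 10.06 and 10.19 at 24 hr. The highest 24 hr library lay just under the lowest of the first 4, and the fold change was -1.73 (SE 0.42, adjusted p = 0.00332) over 8 and -1.17 (SE 0.64, adjusted p = 0.275) over 9 libraries. Vcam1, its counterpart for monocytes and lymphocytes, stood at 11.83, 11.44, 11.20 and 10.45 in 6 hr replicates 1 to 4, at 8.42 in replicate 5, and at 9.48, 9.57, 9.63 and 9.78 at 24 hr. Its groups were apart without replicate 5, with -1.67 (SE 0.33, adjusted p = 0.000614) over 8 and -1.21 (SE 0.46, adjusted p = 0.115) over 9 libraries. Over the 19 selectins and adhesion molecules 6 were lower and 3 higher (Mcam, Jam2 and Emcn) over 8 libraries, with 4 and 3 in the 4-against-4 fit, and Mcam alone was called over 9 libraries.

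Acute-phase and host-defence genes kept high levels at 24 hr, with a list median of 3.76 above 0 hr, but their calls differed between the fits. Over 8 libraries 1 of 33 was higher and 6 were lower, in the 4-against-4 fit 11 and 4, and over 9 libraries none was called. Ptx3, a secreted pentraxin, was among the lower ones in both fits without replicate 5, with -3.44 (SE 0.73, adjusted p = 0.00113) over 8 libraries and -2.83 (adjusted p = 0.108) over 9. Lrg1, a secreted glycoprotein, was not called, at 0.44 (SE 0.51, adjusted p = 0.543) over 8 and 0.84 (adjusted p = 0.356) over 9. Mt2, a zinc-binding metallothionein, stood at 13.36, 12.56, 13.11 and 11.53 log2 CPM in 6 hr replicates 1 to 4, at 2.57 in replicate 5, and at 9.87, 10.10, 10.37 and 11.47 at 24 hr. The highest 24 hr library lay just below the lowest of the first 4. The fold change was -3.62 (SE 1.00, adjusted p = 0.00819) over 8 libraries, -2.14 (adjusted p = 0.00431) in the 4-against-4 fit and -3.02 (SE 1.33, adjusted p = 0.169) over 9, and 432 of its 588 exon bases overlap a gene on the other strand. Timp1, an inhibitor of matrix proteases, stood at 7.31, 7.20, 7.90 and 7.57 in 6 hr replicates 1 to 4, at 1.90 in replicate 5, and at 4.91, 5.84, 5.38 and 5.94 at 24 hr. All 24 hr levels were below the first 4, with -2.49 (SE 0.46, adjusted p = 0.000302) over 8 and -1.97 (SE 0.73, adjusted p = 0.103) over 9 libraries. Of 21 glucocorticoid-responsive genes 3 were higher and 1 lower over 8 libraries, 6 and 0 in the 4-against-4 fit, and 1 was higher over 9 libraries. Among all genes tested over 8 libraries 15.4% were higher and 15.2% lower. Fkbp5, a sensitive target of the glucocorticoid receptor, was not called at -0.36 (SE 0.51, adjusted p = 0.631), with 9.24 to 9.58 in 6 hr replicates 1 to 4 and 9.64 to 10.14 at 24 hr. With the series term alone dropped it was 0.51 (SE 0.60, adjusted p = 0.529) over 8 libraries. Its sign thus differed between these fits, and neither called it.

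Many genes that mark endothelium rose from 6 to 24 hr over 8 libraries. Of 32 pan-endothelial genes 18 were higher and 1 was lower over 8 libraries (median 1.00), 19 and 1 in the 4-against-4 fit, and 2 and 0 over 9 libraries. The list stood at a median of -1.33 from 0 hr at 6 hr and -0.39 at 24 hr. Cardiomyocyte marker levels were lower at 24 hr at the same time, as given above, and their part in the result was not tested. Tek, the receptor for angiopoietins, stood at 5.86, 6.16, 6.26 and 6.95 log2 CPM in 6 hr replicates 1 to 4, at 9.73 in replicate 5, and at 8.54, 8.13, 7.89 and 7.38 at 24 hr. All 24 hr libraries lay above the first 4 and below replicate 5 and the 0 hr range of 9.11 to 9.59. Its fold change was 2.05 (SE 0.28, adjusted p = 1.23e-05) over 8 and 0.48 (SE 0.53, adjusted p = 0.605) over 9 libraries. Ptprb, the phosphatase VE-PTP that acts on Tek and VE-cadherin, stood at 6.03, 6.63, 6.12 and 6.64 in 6 hr replicates 1 to 4, at 10.80 in replicate 5, and at 8.96, 9.39, 9.91 and 9.42 at 24 hr. The gap between the first 4 and 24 hr exceeded 2 log2 units, with a fold change of 2.97 (SE 0.26, adjusted p = 1.45e-07) over 8 and 0.88 (SE 0.66, adjusted p = 0.431) over 9 libraries. Tie1, the partner of Tek, was at 0.73 over 8 libraries, and Angpt2, the ligand that opposes Tek activity, was not called at -0.87 (SE 0.37, adjusted p = 0.0766). In the 4-against-4 fit Angpt2 was at 0.04 (SE 0.37, adjusted p = 0.942).

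Cavin2, which shapes the caveolae of capillary endothelium, moved most with replicate 5. It stood at 3.88, 4.32, 4.49 and 6.18 log2 CPM in 6 hr replicates 1 to 4, at 11.25 in replicate 5, and at 8.08, 8.30, 8.15 and 7.90 at 24 hr. Replicate 5 lay within the 0 hr range of 10.71 to 11.30, and the 24 hr libraries lay midway. The 8-library fold change was 3.58 (SE 0.44, adjusted p = 4.99e-06), 11.9-fold, whereas over 9 libraries it was -0.14 (SE 1.04, adjusted p = 0.952). Caveolin 1 and 2 rose with it over 8 libraries, Cav1 by 2.14 and Cav2 by 2.79. Kdr, the main VEGF receptor, stood at 9.29, 9.35, 9.23 and 9.43 in 6 hr replicates 1 to 4, at 10.73 in replicate 5, and at 10.42, 10.69, 10.06 and 10.31 at 24 hr. Its first 4 libraries were apart from 24 hr, with 1.16 (SE 0.19, adjusted p = 0.0001) over 8 and 0.65 (SE 0.26, adjusted p = 0.134) over 9 libraries. The VE-cadherin gene Cdh5, whose promoter drives the Cre, was not called over 8 libraries (0.69, SE 0.31, adjusted p = 0.0899). With the series term alone dropped it was called higher (0.89, SE 0.28, adjusted p = 0.0137). Robo4 was the pan-endothelial gene that fell (-1.02, SE 0.24, adjusted p = 0.00258). In the angiopoietin and VEGF axis, which shares Tek, Ptprb and others with the pan-endothelial list, 11 of 32 were higher and 4 lower over 8 libraries, and 1 and 1 over 9.

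Part of the fatty acid machinery of heart endothelium rose from 6 to 24 hr. Of 33 genes of fatty acid uptake and heart endothelial identity 12 were higher and 3 lower over 8 libraries (median 0.48), and 2 and 1 over 9. Cd36, the fatty acid receptor (mm10 chr5:17781690-17888801), stood at 9.59, 10.44, 9.88 and 10.96 log2 CPM in 6 hr replicates 1 to 4, at 13.04 in replicate 5, and at 13.07, 12.48, 12.38 and 12.48 at 24 hr. The 24 hr libraries lay above the first 4 and within or near the 0 hr range of 12.44 to 13.14. Its fold change was 2.23 (SE 0.36, adjusted p = 7.87e-05) over 8 and 1.16 (SE 0.47, adjusted p = 0.132) over 9 libraries, and the difference between 24 hr and 0 hr was -0.19 (SE 0.32, adjusted p = 0.679). Gpihbp1, which carries lipoprotein lipase across the capillary, stood at 7.37, 7.56, 8.41 and 8.48 in 6 hr replicates 1 to 4, at 10.49 in replicate 5, and at 10.61, 10.88, 10.27 and 10.33 at 24 hr. It passed with and without replicate 5, at 1.56 (SE 0.40, adjusted p = 0.0284) and 2.42 (SE 0.30, adjusted p = 5.61e-06). Fabp4, a fatty acid carrier of the capillary, stood at 13.31, 12.93, 13.14 and 13.54 in 6 hr replicates 1 to 4, at 13.84 in replicate 5, and at 14.26, 15.09, 14.02 and 14.29 at 24 hr. All 24 hr libraries lay above all 5 of 6 hr, with 1.21 (SE 0.28, adjusted p = 0.00227) over 8 and 1.04 (SE 0.28, adjusted p = 0.0353) over 9 libraries. Rbp7, Fabp5, Mgll and the transcription factor Meox2 rose by 3.32, 2.32, 2.4 and 2.04 over 8 libraries, and Rbp7 was 1.87 (adjusted p = 0.126) over 9. Lpl itself, made mostly by cardiomyocytes, was at 0.02 (SE 0.38, adjusted p = 0.97).

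Ucp2 and Itga3 were above the 0 hr level at 24 hr. Ucp2, an anion carrier of the inner mitochondrial membrane, led the rises of the 9-library comparison. It stood at 5.64, 6.43, 6.16 and 7.44 log2 CPM in 6 hr replicates 1 to 4, at 8.16 in replicate 5, and at 10.08, 10.08, 10.66 and 10.87 at 24 hr. Every 24 hr library exceeded every 6 hr and every 0 hr library (7.90 to 8.27 at 0 hr). Its fold change was 3.00 (SE 0.40, adjusted p = 1e-05) over 8 and 2.71 (SE 0.38, adjusted p = 0.0028) over 9 libraries, and 24 hr was 1.6 (SE 0.35, adjusted p = 0.00192) above 0 hr. Itga3, an integrin chain that binds laminin, stood at 2.67, 3.02, 2.77 and 4.49 in 6 hr replicates 1 to 4, at 4.66 in replicate 5, and at 7.03, 6.92, 7.88 and 6.90 at 24 hr. All 24 hr levels were at least 2 log2 units above all 5 of 6 hr and above 0 hr, with 2.81 (SE 0.53, adjusted p = 0.000375) over 8 and 2.66 (SE 0.47, adjusted p = 0.00669) over 9 libraries, and 24 hr was 2.31 (SE 0.46, adjusted p = 0.000945) above 0 hr. Entpd1, the ectonucleotidase CD39 that clears the platelet activator ADP, stood at 4.65, 5.23, 4.88 and 5.22 in 6 hr replicates 1 to 4, at 7.66 in replicate 5, and at 7.80, 7.80, 8.19 and 7.89 at 24 hr. Here replicate 5 lay just under the 24 hr libraries, with 2.57 (SE 0.30, adjusted p = 2.4e-06) over 8 and 1.67 (SE 0.40, adjusted p = 0.0211) over 9 libraries. Its difference between 24 hr and 0 hr was 0.57 (SE 0.26, adjusted p = 0.107) and did not pass. The other 7 of the 10 largest rises over 9 libraries were Hrct1, the protease inhibitor Ctla2a, Nostrin, which moves nitric oxide synthase, Vat1, Tusc3, a subunit for protein glycosylation, the lipid phosphatase Plpp1 and Fkbp10, a collagen chaperone. Their 9-library fold changes ran from 1.57 to 1.92, and over 8 libraries each was called too. The ranking of these 10 genes, with Ucp2, Itga3 and Entpd1, required every 24 hr library to lie above every 6 hr library.

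Over 8 libraries the 10 largest rises were Fmo2, a flavin monooxygenase (3.66), Cavin2, Spock2, an extracellular proteoglycan (3.46), Fam198b (3.45), the retinol carrier Rbp7, Ucp2, Ptprb, Tspan12, a coreceptor of Norrin signals (2.93), Adgrl4, an endothelial adhesion receptor (2.90), and Car8 (2.87). That ranking required every 24 hr library to lie above 6 hr replicates 1 to 4. Of these 10 genes Ucp2 alone was also called over 9 libraries. Fmo2 had the largest rise of them. It stood at 3.70, 4.63, 2.63 and 4.61 log2 CPM in 6 hr replicates 1 to 4, at 9.04 in replicate 5, and at 7.73, 7.73, 7.98 and 8.26 at 24 hr. Replicate 5 was above every 24 hr library and above the others of its label by more than 4 log2 units.

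Of 29 genes of vascular tone, nitric oxide and prostaglandins 12 were higher and 3 lower (13 and 5 in the 4-against-4 fit, 0 and 1 over 9 libraries). Ptgs1, the constitutive cyclooxygenase, rose by 3.43 (SE 0.32, adjusted p = 1.73e-07), with 1.86 to 3.58 log2 CPM in 6 hr replicates 1 to 4 and 5.45 to 6.24 at 24 hr. The inducible synthases went the other way, with Nos2 at -1.82 and the prostaglandin E synthase Ptges at -2.16. Nos3, the endothelial nitric oxide synthase, rose by 1.23 (SE 0.33, adjusted p = 0.00672) with overlapping groups, and was 0.86 (adjusted p = 0.117) over 9 libraries. Of 28 coagulation and fibrinolysis genes 9 were higher and 4 lower over 8 libraries, and 3 and 1 over 9. The shares of all genes tested were 15.4% higher and 15.2% lower over 8 libraries. Thbd, thrombomodulin, which turns thrombin against clotting, stood at 6.47, 6.53, 5.38 and 7.45 in 6 hr replicates 1 to 4, at 9.86 in replicate 5, and at 8.33, 8.33, 8.43 and 8.06 at 24 hr. It did not overlap between the first 4 and 24 hr, and rose by 1.86 (SE 0.41, adjusted p = 0.00155) over 8 libraries, against 0.46 (SE 0.57, adjusted p = 0.656) over 9. Selp is in this list as well.

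Of 32 endothelial transcription factors 12 were higher and 2 lower over 8 libraries, among them Erg (1.47), Fli1 (1.90) and Sox17 (1.91), and none was called over 9. Hif1a, the hypoxia factor, was one of the 2 lower ones at -1.53 (adjusted p = 0.00122), but -0.51 (adjusted p = 0.363) in the 4-against-4 fit. Of 24 junction proteins 9 were higher and 3 lower over 8 libraries (8 and 1 in the 4-against-4 fit, none over 9), with Cldn15 (2.53) and Ocln (2.04) among the higher and the Rap1 effector Rasip1 (-1.79) among the lower. Of 33 genes of BMP and TGF-beta signalling 9 were higher and 2 lower over 8 libraries (1 and 0 over 9), with the inhibitory Smad6 and Smad7 at 1.53 and 1.39 and the ligand Bmp2 at -2.12. Of 35 collagens, laminins and matrix genes 5 were higher and 1 lower (1 and 0 over 9), and of 24 matrix proteases and inhibitors 3 and 5 (3 and 2 in the 4-against-4 fit, 1 and 0 over 9). Glycocalyx genes gave 2 higher and 4 lower of 19 (3 and 6 in the 4-against-4 fit, 0 and 2 over 9). Among all genes tested 15.4% were higher and 15.2% lower over 8 libraries, and 1.82% and 2.92% over 9. Counts near these shares do not set a list apart.

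Most genes for making ribosomes were lower at 24 hr over 8 libraries. Of 32 ribosome biogenesis genes 26 were lower over 8 libraries (median -1.02), 10 in the 4-against-4 fit (median -0.53) and 1, Rrp12, over 9 libraries. Rrp12, which matures both ribosomal subunits, stood at 7.34, 7.18, 6.84 and 5.54 log2 CPM in 6 hr replicates 1 to 4, at 2.86 in replicate 5, and at 4.84, 4.99, 4.64 and 4.86 at 24 hr. The first 4 lay above 24 hr, with -2.65 (SE 0.44, adjusted p = 0.0001) over 8 and -2.16 (SE 0.63, adjusted p = 0.0471) over 9 libraries. Of 85 cytosolic ribosomal proteins 34 were lower and 1, Rpl10, higher over 8 libraries (median -0.74), 31 and 1 in the 4-against-4 fit, and 1 and 1 over 9. Many ribosomal protein genes have processed pseudogenes, so their counts are less certain. Of 78 genes of the mitochondrial respiratory chain 23 were lower and none higher over 8 libraries (median -0.53), 28 in the 4-against-4 fit, and none was called over 9. They include the heart-type subunits Cox6a2 (-1.29) and Cox8b (-1.46). The summed cardiomyocyte markers, 7750 to 16400 CPM at 6 hr (replicates 1 to 4) and 4200 to 6800 CPM at 24 hr, moved with these lists, and their part in the result was not tested.

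Part of the stress genes fell as well. Of 18 heat shock genes 10 were lower and none higher over 8 libraries (median -0.87, 2 lower over 9), with Hspa1a at -2.58 and Hsp90aa1 at -1.80, and Hspa1a has a near-identical copy in Hspa1b (-2.27). Of 30 genes of the unfolded protein and amino acid stress response 13 were lower and none higher over 8 libraries (9 in the 4-against-4 fit, 4 over 9 libraries), led by Mthfd2 at -2.43 and with Atf4 at -1.95 and Asns at -1.92. Of 29 cell death genes 10 were lower and 4 higher over 8 libraries (3 and 0 over 9). The sensor Zbp1 (-2.56), the inflammasome gene Nlrp3 (-2.91) and the necroptosis effector Mlkl (-1.78) were among the lower, and Bcl2, which protects from apoptosis, was among the higher (1.59). In glycolysis and glucose uptake 2 of 28 were higher and 8 lower over 8 libraries, 7 and 8 in the 4-against-4 fit, and 2 and 1 over 9. The muscle and fat glucose carrier Slc2a4 fell in both comparisons (-1.99 and -1.95), as did the D-type cyclin Ccnd2 (-1.88 and -1.86). Cell cycle genes otherwise gave few calls, 2 higher and 1 lower of 43 over 8 libraries, 2 and 5 in the 4-against-4 fit and 0 and 1 over 9. The proliferation marker Mki67 was not called (-0.96, adjusted p = 0.325 over 8 libraries and -0.66, adjusted p = 0.587 over 9). The remaining lists over 8 libraries gave 7 higher and 6 lower of 29 cholesterol genes (6 and 1 in the 4-against-4 fit, none over 9), 3 and 5 of 20 amino acid carriers (5 and 3, and 1 and 0 over 9), 2 and 4 of 12 metallothionein, zinc and iron genes (1 and 3, and 1 and 0 over 9), and 0 and 3 of 20 clock genes (1 and 2, and 0 and 1 over 9). All genes tested over 8 libraries gave 15.4% higher and 15.2% lower, and counts near these shares do not set a list apart. Of the clock genes, Per1 was -0.79 (adjusted p = 0.237) over 8 and -0.56 (adjusted p = 0.501) over 9 libraries, and Dbp 0.43 (adjusted p = 0.556) and -0.81 (adjusted p = 0.422).

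Letters known as binding sites were counted in the promoters, from position -250 to position 50 around each RefSeq start, of the 11016 genes tested over 8 libraries that have one. NF-kappaB letters stood in 4.55% of all tested genes, 6.44% of those lower and 3.53% of those higher at 24 hr, but in 3.75% of the genes lower over 9 libraries, under the share of all genes. The interferon-response letters stood in 3.79% of all, 6.84% of the lower and 2.88% of the higher genes, and in 13.8% of the genes lower over 9 libraries, where interferon genes made up more of the calls. Letters of STAT sites (TTCCNNGAA or TTCCNGGAA) gave 5.28%, 6.32% and 4.47%, and those of AP-1 sites (TGACTCA or TGAGTCA) 4.75%, 5.24% and 4.76%. The cell cycle letters TTTGAA and TTCGAA gave 16.3%, 16.1% and 15.0%. All were searched on both strands, and the shares are a description without a test.

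At the later time points Cxcl2 had medians of 3.88, 2.72 and -1.85 log2 CPM (48, 72 and 168 hr), and fell by a further 2.12 (SE 0.44, adjusted p = 0.0109) from 24 to 48 hr. Il6 had 2.55, 0.24 and -2.08 at these times. Ifit1 had a median of 6.79 at 48 hr, inside its 0 hr range of 6.5 to 7.14, after a further fall of 1.29 (SE 0.29, adjusted p = 0.0182). At 48 hr Lcn2 had a median of 12.80 and a span from 9.40 to 14.24. Ucp2 had medians of 9.32, 8.89 and 8.44 at the later times, and the step from 24 to 48 hr was -0.83 (SE 0.32, adjusted p = 0.121). For Cd36 the step from 24 to 48 hr was 0.24 (SE 0.29, adjusted p = 0.676) and did not pass the test, and Cavin2 rose further by 1.33 (SE 0.36, adjusted p = 0.0368) to a median of 9.52 at 48 hr and 11.06 at 168 hr. These steps share the 24 hr libraries with the comparison above and come from the fit without 6 hr replicate 5.

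**Figure D4:**
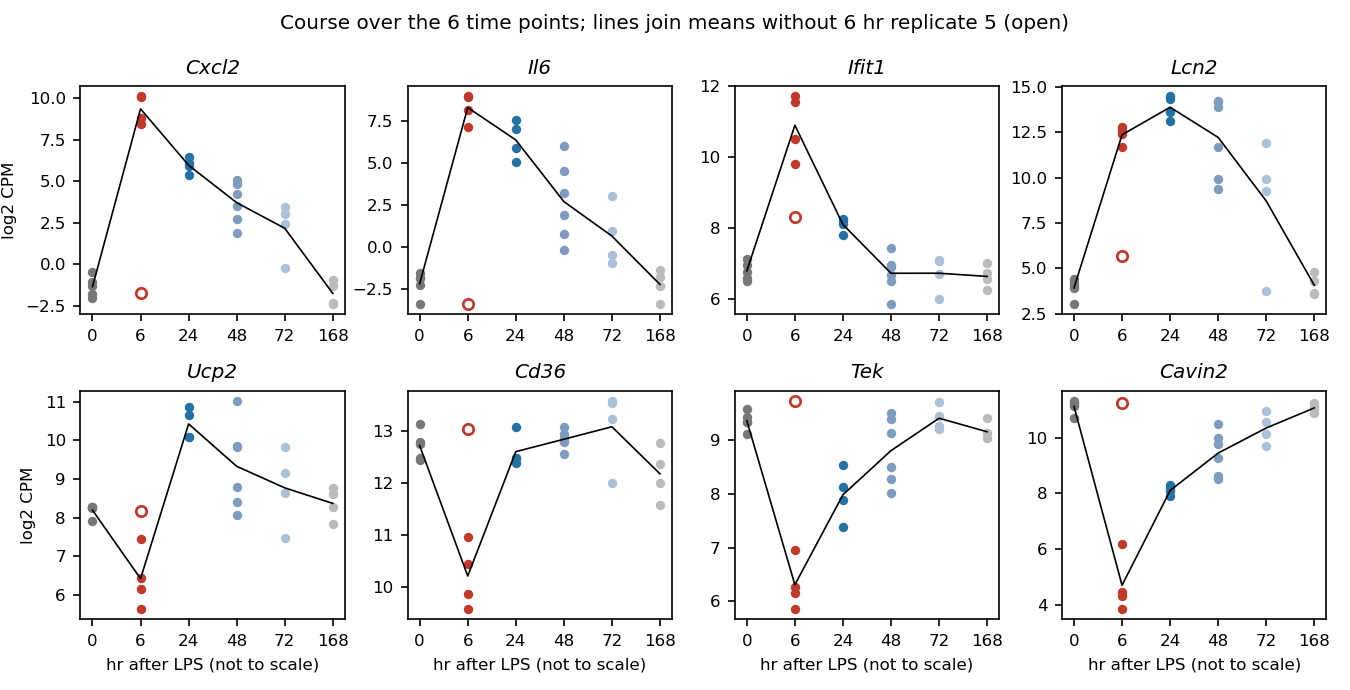
Levels of 8 genes in log2 CPM for every kept heart library at the 6 time points (evenly spaced, not to scale), with lines through the means without 6 hr replicate 5, the open point. Cxcl2, Il6 and Ifit1 peak at 6 hr, Lcn2 and Ucp2 at 24 hr, and Cd36, Tek and Cavin2 are lowest at 6 hr.

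Brain ECs of the same series were set beside the heart to ask whether the step from 6 to 24 hr differs between tissues, by an edgeR interaction test with series terms for each tissue. The brain library labelled 6 hr replicate 6 also stood apart from its 4 fellows, for example with Cxcl1 at 0.67 log2 CPM against 8.00 to 11.58. Brain levels at 0 hr are not given here. Over all libraries 4 of 19924 genes (0.0201%) were more positive and 1 (0.00502%) more negative in heart, and without the 2 doubtful libraries 911 (4.57%) and 668 (3.35%) of 19928 were. Tusc3 was called in both, with a difference of 1.93 (SE 0.34, adjusted p = 0.0153) and 2.25 (SE 0.34, adjusted p = 4.7e-05), since it rose by 2.06 in heart and was at -0.20 in brain.

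The inflammatory falls were not called different between the tissues for most genes, but an uncalled difference does not show an equal fall. Without the 2 libraries the CXC chemokines had medians of -2.24 in heart and -0.6 in brain. CC and CX3C chemokines had -1.64 and -0.51. Of these lists 1 of 13 and 1 of 17 were more negative in heart, and none was more positive. Without the 2 libraries Cxcl2 changed by -4.35 in heart and -3.92 in brain, a difference of -0.43 (SE 1.14, adjusted p = 0.912), and Ifit1 by -2.90 and -2.24, a difference of -0.66 (SE 0.58, adjusted p = 0.558). The brain levels of Cxcl2 overlapped, with 4.91 to 9.96 log2 CPM at 6 hr and 5.84 to 8.71 at 24 hr. Without series terms the differences were -2.19 (adjusted p = 0.295) for Cxcl2 and -1.53 (adjusted p = 0.0774) for Ifit1, and neither was called. Timp1 was called in that setting at -3.01 (adjusted p = 0.0328), but not with series terms (-1.56, adjusted p = 0.169). List counts of this test are given only without the 2 libraries and with series terms. Of 44 interferon-stimulated genes 1 was more positive and none more negative in heart, with medians of -2.04 in heart and -1.97 in brain. The SE on Cxcl2 leaves room for a large difference in either direction. The NF-kappaB list gave 6 of 26 more negative in heart (medians -1.58 and -0.35), cytosolic ribosomal proteins 17 of 85 (-0.74 and 0.24) and ribosome biogenesis 9 of 32 (-1.0 and 0.07), and none in these was more positive.

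Rises of vascular genes were called larger in heart for part of the lists. Without the 2 libraries 5 of 32 pan-endothelial and 5 of 33 fatty acid genes were more positive in heart and none more negative. Cd36 changed by 2.23 in heart and 0.00 in brain, where it stood at or below 0.74 log2 CPM in every library, a difference of 2.22 (SE 0.53, adjusted p = 0.00657). Thbd changed by 1.85 in heart and -1.0 in brain, a difference of 2.85 (SE 0.57, adjusted p = 0.00132). Over all libraries neither difference was called, with 1.13 (adjusted p = 0.52) for Cd36 and 1.63 (adjusted p = 0.369) for Thbd. Tek and Kdr rose in both tissues without the 2 libraries, with differences of 0.76 (SE 0.42, adjusted p = 0.281) and 0.18 (SE 0.35, adjusted p = 0.85). In the same setting the 5 genes most positive in heart were Coro2b (3.88), Fmo2 (3.83), Spock2 (3.81), Ttyh3 (3.07) and Adgrl4 (3.03). The 5 most negative were Tent5a (-3.01), Islr2 (-2.84), Fjx1 (-2.83), Tcof1 (-2.79) and Hap1 (-2.77). Without series terms Islr2, Fjx1 and Hap1 had -0.72, -0.62 and -1.54 and were not called (adjusted p = 0.627, 0.724 and 0.106). Over all libraries none of these most positive or most negative genes was called.

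**Figure D5:**
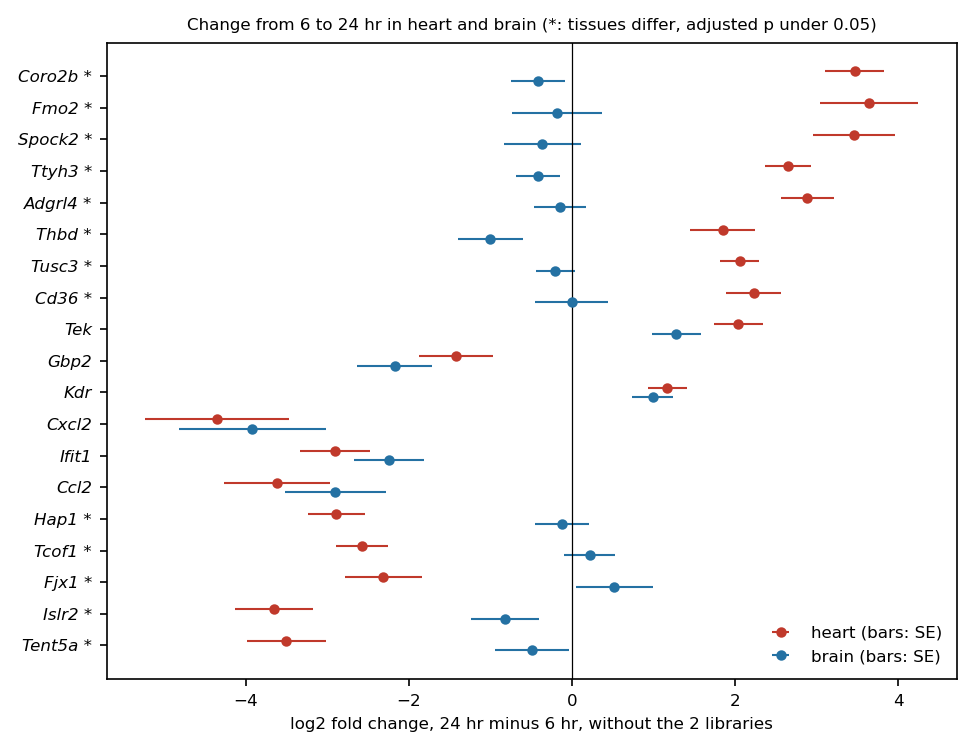
Points show the log2 fold change from 6 to 24 hr in heart (red) and brain (blue) with bars of 1 SE, without the heart library labelled 6 hr replicate 5 and the brain library labelled 6 hr replicate 6. A star marks genes whose tissues differ at an adjusted p under 0.05, such as Thbd and Cd36, and Cxcl2, Ifit1, Tek and Kdr carry none.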

How the data were processed

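RNA bound to HA-tagged ribosomes of heart ECs was sequenced at 6 time points after LPS. The authors aligned reads with STAR 2.4.2 to mm10 and counted them per gene with HTSeq 0.6.1, and the deposited values are raw counts per gene and sequencing run, with no normalization. The annotation release and the strand setting are not given in the sources used here. Runs of 1 library (same tissue, time and replicate number) were summed, and libraries under 3% of reads on genes were left out, 1 of 6 hr (2.41%) and 1 of 24 hr (2.13%). Rows that name no gene (no feature, ambiguous, not unique) were kept out of library sizes, which left 43.7% to 67.7% of the reads of the 9 libraries in use. Of 52550 gene IDs 52403 matched a symbol.

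All 28 kept heart libraries were fitted with edgeR 4.0.16 in R 4.3.3 (TMM scaling, filterByExpr by time, quasi-likelihood F test, two-sided) with time and file-name series as terms, and 24 hr was compared with 6 hr. Each SE was taken from the fold change and the root of its F. Levels were computed as log2 CPM (prior count 2), so -3.39 means no count. Fold changes are on the log2 scale. Brain ECs entered an interaction test of the same kind. The fit was tested on simulated counts with known changes. The simulated counts held no series effect and no library that went against its label, so that test does not cover either. No 2 libraries of a time agreed within sampling noise.

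Named genes were the 10 largest rises and the 10 largest falls among called genes of mean level 5 or more (log2 CPM) and no overlap between the times, a panel of immune and vascular genes, the called member of each gene list with the largest change each way at a mean of at least 3, and 5 genes each way for the brain test. Other list members were named after their values were seen. One gene of the panel is not reported here. The members, lists and rules were chosen with earlier results of these data known. Alternatives used DESeq2 1.42.0, limma 3.58.1, sva 3.50.0 (ComBat), RLE scaling, other filters and designs and fewer libraries, and the fits without 6 hr replicate 5 were added after seeing the data.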

Additional observations from a re-analysis of the deposited data

Results flagged for a closer look

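In 69 genes given by library, both times were searched for a library far from its group, and 33 of 138 groups held one. Chance gives about 1 in 20 only for independent groups, and these groups share their libraries. Part of the genes were also chosen in the fit without 6 hr replicate 5, so no rate is drawn from the count. In 29 of the 33 the library far from its group was 6 hr replicate 5. It was the lowest of its group in 22. In log2 CPM these were Ccl2 at 2.28, Ccl5 at -0.77, Ccl7 at 0.01, Csf3 at -3.39, Cxcl1 at 2.18, Cxcl10 at 5.03, Cxcl2 at -1.71, Cxcl5 at -3.39, Cxcl9 at 6.76, Fkbp5 at 7.20, Gbp2 at 8.47, Icam1 at 7.08, Ifi44 at 8.04, Il6 at -3.39, Islr2 at 2.46, Lcn2 at 5.69, Mt2 at 2.57, Ptx3 at 0.01, Selp at 2.86, Timp1 at 1.90, Tnfaip3 at 4.41 and Ubd at -2.09. It was the highest in 7, Car8 at 8.90, Dbp at 7.30, Entpd1 at 7.66, Kdr at 10.73, Ptprb at 10.80, Spock2 at 8.03 and Tek at 9.73.

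The other 4 were libraries of 24 hr. Cd36 was highest in replicate 1 at 13.07, Cxcl5 highest in replicate 5 at 4.95, Itga3 highest in replicate 4 at 7.88 and Selp lowest in replicate 2 at 7.91. Between heart and brain, the change from 6 to 24 hr differed by the interaction test over all libraries for 4 genes more positive and 1 more negative in heart.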

How the results depend on the processing

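The count of genes called over 9 libraries (292 higher, 468 lower) depended on single libraries. Leaving out each in turn gave 0 to 2470 higher and 0 to 2426 lower. It was 0 and 0 without 24 hr replicate 2 (edgeR, with 1009 higher and 1533 lower at an unadjusted p under 0.05), the only 24 hr library of series 2, 75 and 138 without 6 hr replicate 1, 125 and 221 without 6 hr replicate 3, 142 and 183 without 24 hr replicate 1, 161 and 271 without 24 hr replicate 4, and 2470 and 2426 without 6 hr replicate 5. Other settings gave 643 and 1164 with DESeq2, 455 higher with limma-voom, 2028 and 1599 with ComBat then limma, 444 and 916 with no filter, 1366 and 1786 without series, 0 and 0 for the 6 and 24 hr libraries alone with series (edgeR, 789 and 717 unadjusted), 135 and 235 for them without series, 5 and 4 in series that hold both times, and 193 higher at a log2 fold change of at least 1. The list members called (17 higher, 64 lower) became 32 and 140 with DESeq2, 101 and 134 with ComBat then limma, 37 and 166 with no filter, 58 and 178 without series, 0 and 0 for both times alone with series, 26 lower for them without series, 39 lower with limma-voom, and 0 and 1 in series that hold both times, with 0 to 119 higher and 0 to 332 lower over libraries left out. The cause of these shifts was not tested.

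Without 6 hr replicate 5 the calls (2470 higher, 2426 lower) ran from 1851 to 2923 higher and 1736 to 2817 lower over further libraries left out. They became 741 and 597 in series 2 alone, with fewer libraries, and 1522 lower at a log2 fold change of at least 1. The list members (119 higher, 332 lower) ran from 93 to 141 and 263 to 351, and were 52 and 123 in series 2. The tissue test (4 and 1) gave 321 and 362 with series shared by tissues, 82 and 131 without series, 36 and 79 with DESeq2, 4 more negative with RLE scaling, 2 more negative with libraries under 3% kept, and 0 to 1359 and 0 to 1024 over libraries left out. Of these, 0 and 0 came without 24 hr replicate 2 (edgeR, 733 and 1066 unadjusted).

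A replicate block by the number in the labels moved the 9-library calls to 786 higher and 799 lower and the list members to 40 higher. Same-numbered libraries did not deviate together (correlations -0.21, -0.31, 0.09 and -0.20 for numbers 1, 2, 4 and 5), so the numbers are not taken as pairs.

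Of the values for single genes over 9 libraries, 1339 kept their side of the threshold (49 of them, in 26 genes, with a change of sign that no fit called), 85 came to pass it, 91 ceased to and 3 reversed. Cavin2 was 2.37 with ComBat then limma and ran from -0.65 to 3.58 over libraries left out, the latter without 6 hr replicate 5, and Cxcl2 was 0.86 with both times alone and series. Over 8 libraries 976 kept their side (27, in 8 genes, with such a change of sign), 10 came to pass, 48 ceased to and 1 reversed, Lcn2 at 1.62 in the 4-against-4 fit. Genes that the low-count filter removed were not tested.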
